A study of Rattus norvegicus with 10 samples.

Results

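Dentate granule cell markers were followed by RNA sequencing in 10 male rats, 1 left hippocampus from each. The markers are a list of 8 genes chosen for their known expression in these neurons: Prox1, Dsp, C1ql2, C1ql3, Calb1, Tdo2, Lct and Stxbp6. They were found by symbol in the deposited gene tables, where 7 of the 8 matched among 17168 genes. Dsp, which encodes the cell junction protein desmoplakin, was not matched and is not analysed here. Of the 7 matched genes, 5 passed the filter on low counts and were among the 12161 genes tested: Prox1, C1ql2, C1ql3, Calb1 and Stxbp6. Tdo2 and Lct did not pass it.

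All 10 animals were male TgF344-AD rats, a transgenic line that carries human mutant APP and presenilin 1 transgenes driven by the mouse prion promoter and that serves as a model of Alzheimer's disease. The untreated group of 5 rats ate rodent chow, and the RG2833 group of 5 rats ate chow holding 750 mg of RG2833 per kg. RG2833 blocks HDAC1 and HDAC3, enzymes that remove acetyl groups from histones. It was given from 5 months of age for 6 months, and all rats were killed at 11 months. One sentence of the design text names ibudilast in place of RG2833; the treatment labels and the title name RG2833 and were followed. Both groups carry the transgenes, wild-type rats are not analysed here, and the labels state no batch.

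Granule cells are the principal neurons of the dentate gyrus, the gate through which cortical input enters the hippocampus. Their axons, the mossy fibres, make large synapses on CA3 pyramidal cells, and new granule cells are added throughout life in rodents. Prox1 is the homeobox transcription factor that sets and keeps granule cell identity. C1ql2 and C1ql3 are secreted C1q-family proteins that mossy fibres release to organise their synapses. Calb1 encodes calbindin, a calcium buffer that CA1 pyramidal cells and many interneurons also hold. Stxbp6 encodes amisyn, a SNARE-binding protein that restrains exocytosis. Tdo2 encodes tryptophan dioxygenase, which opens the kynurenine pathway, and Lct encodes lactase; both are known as granule cell transcripts in mice. The samples were pieces of whole tissue, so fewer granule cells and less RNA per granule cell cannot be told apart.

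The promoters of C1ql2, C1ql3 and Stxbp6 are shown first, because these genes varied with Prox1 between libraries but over different ranges. RefSeq promoter entries of the rat assembly GRCr8 matched 6 of the 8 symbols. Each sequence is the 250 bases before the annotated start site, 5′ to 3′ on the gene's strand. Capitals mark the E-box CANNTG, the core recognised by basic helix-loop-helix factors, and the TATA box TATAAA, both searched on both strands.
C1ql2, chr13:34023652-34023901, plus strand: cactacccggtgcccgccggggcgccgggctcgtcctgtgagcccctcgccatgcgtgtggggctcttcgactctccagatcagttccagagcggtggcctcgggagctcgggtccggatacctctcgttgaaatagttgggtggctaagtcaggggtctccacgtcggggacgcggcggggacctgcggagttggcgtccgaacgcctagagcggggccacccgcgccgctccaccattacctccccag
C1ql3, chr17:81038245-81038494, minus strand: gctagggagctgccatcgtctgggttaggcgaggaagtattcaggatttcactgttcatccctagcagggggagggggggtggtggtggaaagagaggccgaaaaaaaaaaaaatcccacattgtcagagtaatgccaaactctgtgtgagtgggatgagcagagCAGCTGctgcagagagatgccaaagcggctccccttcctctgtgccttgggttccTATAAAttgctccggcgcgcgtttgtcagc
Stxbp6, chr6:67884339-67884588, minus strand: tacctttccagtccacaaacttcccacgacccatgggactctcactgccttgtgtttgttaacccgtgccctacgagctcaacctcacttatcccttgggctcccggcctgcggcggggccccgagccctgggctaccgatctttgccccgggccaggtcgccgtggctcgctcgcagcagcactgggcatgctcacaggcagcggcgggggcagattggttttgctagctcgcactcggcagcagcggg
The C1ql3 window held 1 E-box, CAGCTG at -85 to -80 from the start site, and 1 TATA box at -30 to -25. Neither motif was found in the C1ql2 or Stxbp6 windows. Of 33469 rat promoters of the same length, 65.5% held an E-box and 12.9% a TATA box, so most promoters hold the first and few the second. GC content was 68.8% for C1ql2, 64.8% for Stxbp6 and 54% for C1ql3, against a median of 51.2% over all promoters. These matches describe letters in the windows and do not show binding.

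The libraries held from 15118203 to 18533520 expected counts, and levels are given as counts-per-million values (CPM) after the library sizes were scaled by edgeR's TMM method. Untreated replicate 2 and RG2833 replicate 1 carried choroid plexus transcripts far above the other libraries, with Ttr at 6929 and 8190 CPM. Untreated replicate 3 stood apart in several marker lists: granule cell, CA3, pan-neuronal and oligodendrocyte sums were below those of the other untreated libraries, and microglia, endothelium and astrocyte sums above. For that reason the correlations and fold changes of the members are given with and without it.

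Prox1 was detected in all 10 libraries and was nearly lost from one of them. It stood at 43.5, 50.5, 4.3, 29.0 and 33.0 CPM in untreated replicates 1 to 5. In RG2833 replicates 1 to 5 it stood at 34.8, 26.9, 50.0, 21.5 and 23.2 CPM. The value of untreated replicate 3 lay far below the other 9, which spanned 21.5 to 50.5 CPM, and the groups overlapped. That library held 72 counts of Prox1, or 4.19 CPM of its unscaled total (95% Wilson interval 3.33 to 5.28, counting error only). The other 4 untreated libraries had a median 8.89-fold higher. Of the 12161 genes tested, 15 including Prox1 itself were at least as low in this library relative to the median of the other 4 on the log2 scale.

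C1ql2 had the widest range of the 5 tested members, 20-fold between the highest and lowest library. In untreated replicates 1 to 5 it stood at 116, 142, 7.1, 53.8 and 90.2 CPM. In RG2833 replicates 1 to 5 it was at 86.5, 68.1, 99.6, 54.3 and 38.2 CPM. Untreated replicate 3 was again lowest, with 119 counts against 878 to 2772 in the other untreated libraries, and RG2833 replicate 5 was next. The median of the other 4 untreated libraries was 14.5-fold higher than replicate 3, and 4 of 12161 genes, C1ql2 among them, were as low there.

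C1ql3, the close relative of C1ql2, varied much less. Its untreated values were 106, 121, 73.7, 99.7 and 104 CPM in replicates 1 to 5, and its RG2833 values were 117, 83.9, 113, 75.8 and 72.3 CPM. The highest library was 1.67-fold above the lowest. Untreated replicate 3 was low here too, at 1.43-fold under the median of the other 4 untreated libraries, but RG2833 replicate 5 was lower still. The expected counts of C1ql2 and of C1ql3 were whole numbers in all 10 libraries.

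Stxbp6 lay between the pair. Untreated replicates 1 to 5 had 41.6, 47.6, 21.6, 39.6 and 37.1 CPM, and RG2833 replicates 1 to 5 had 35.4, 28.2, 45.6, 26.6 and 32.6 CPM. Untreated replicate 3 was the lowest of the 10, 1.88-fold under the median of the other 4 untreated libraries. The highest library was 2.2-fold above the lowest.

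Calb1 was the steadiest member and did not share the low value. In untreated replicates 1 to 5 it stood at 80.3, 67.5, 90.6, 65.7 and 66.7 CPM, and in RG2833 replicates 1 to 5 at 72.8, 73.5, 75.2, 66.6 and 74.4 CPM. Untreated replicate 3, lowest for Prox1, C1ql2 and Stxbp6, was the highest of all 10 for Calb1. Its highest library was 1.38-fold above its lowest. Calbindin transcripts in whole hippocampus also come from CA1 pyramidal cells and interneurons; how much of the Calb1 signal came from granule cells was not tested.

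**Figure D1:**
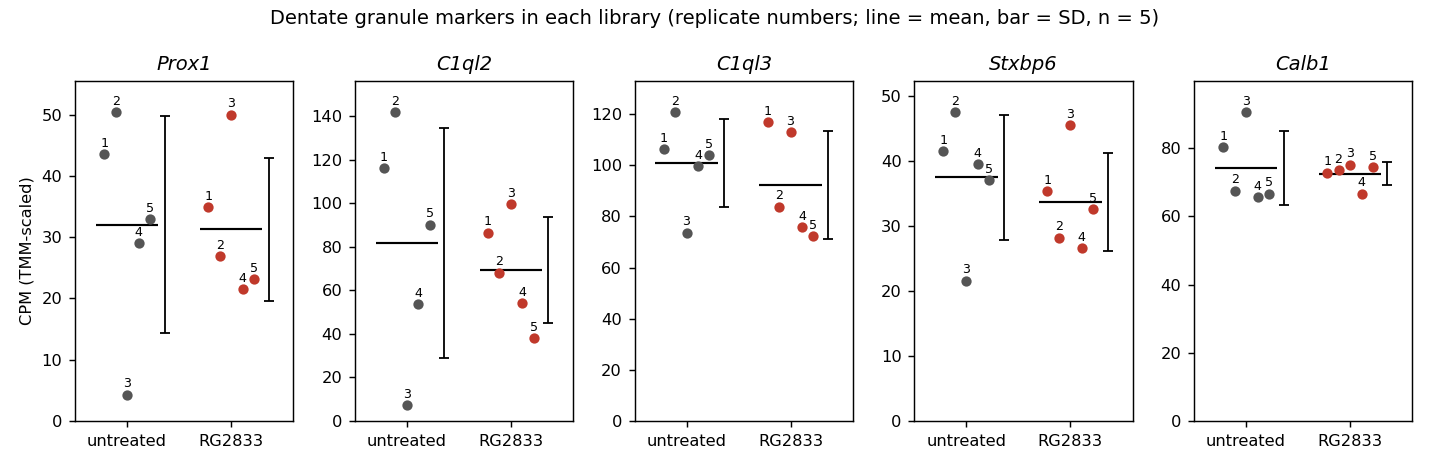
CPM of the 5 tested members in each library, 1 panel per gene, with untreated libraries in grey and RG2833 libraries in red; numbers are replicates, lines are group means and bars are SD (n = 5 each). Untreated replicate 3 is lowest for Prox1 (4.3 CPM), C1ql2 (7.1 CPM) and Stxbp6 (21.6 CPM) and highest for Calb1 (90.6 CPM).

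Tdo2 and Lct, granule cell transcripts in mice, gave almost no reads in these rats. Tdo2 had 0 counts in every library, which allows up to 0.162 to 0.198 CPM of the unscaled total in a single library at 3 counts. Lct had from 1 to 8 counts per library, or 0.0568 to 0.501 CPM, too few for a comparison between libraries. Its 8 counts in untreated replicate 3 and in RG2833 replicate 4 were the most of any library.

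The levels of Prox1, C1ql2, C1ql3 and Stxbp6 were correlated over the libraries, while Calb1 did not follow them. Prox1 and C1ql2 had a Pearson r of 0.98 over 10 libraries on log2 CPM (permutation p = 7.00e-05, adjusted 0.00045 over 10 pairs) and a Spearman rho of 0.92 (permutation p = 0.00071, adjusted 0.00237). Prox1 and Stxbp6 had an r of 0.88 (permutation p = 9.00e-05, adjusted 0.00045) and a rho of 0.94 (permutation p = 0.00027, adjusted 0.0015). For Prox1 and C1ql3 the r was 0.74 (permutation p = 0.00041, adjusted 0.00137) and the rho 0.93 (permutation p = 0.0003, adjusted 0.0015). The other 3 pairs among these 4 genes had r from 0.75 to 0.85, with permutation p adjusted over the 10 pairs from 0.00217 to 0.00408, and rho from 0.79 to 0.87, with adjusted p from 0.00502 to 0.0149.

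The relations among these 4 genes kept their direction without untreated replicate 3. Without it, r over 9 libraries was 0.90 for Prox1 with C1ql2, 0.90 with Stxbp6 and 0.89 with C1ql3, and from 0.69 to 0.85 for the other 3 pairs. With the 2 libraries farthest from the median of Prox1 left out, untreated replicates 2 and 3, the r values for the same Prox1 pairs were 0.87, 0.87 and 0.87. Deviations from the group means gave 0.98, 0.94 and 0.81. The libraries share 1 tissue, and these genes were picked as markers of 1 cell type.

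Calb1 gave an r of -0.61 with Prox1 (permutation p = 0.0816, adjusted 0.102 over 10 pairs) and a rho of -0.02 (permutation p = 0.973, adjusted 0.973). The sign of r turned when untreated replicate 3 was left out, to 0.29. The 3 other pairs with Calb1 had r from -0.62 to -0.32 with all libraries and from 0.03 to 0.17 without that library. The negative r of Calb1 with the other members thus rested on 1 library.

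**Figure D2:**
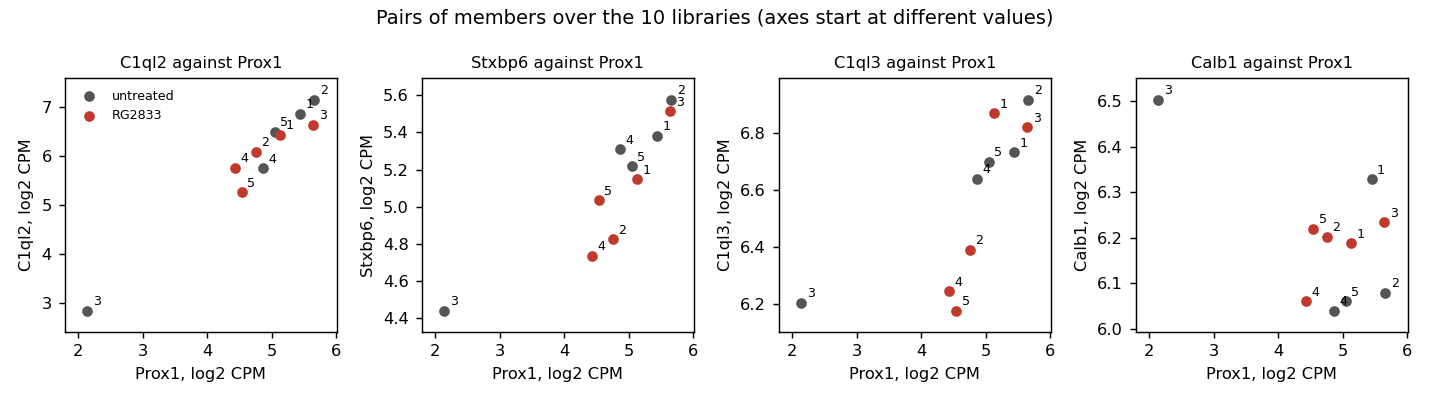
Log2 CPM of C1ql2, Stxbp6, C1ql3 and Calb1 against log2 CPM of Prox1, 1 point per library, untreated in grey and RG2833 in red, numbered by replicate; the axes start at different values. The first 3 genes climb with Prox1 with and without untreated replicate 3 at the far left, while Calb1 is highest in that library and has an r of 0.29 with Prox1 among the other 9.

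Ratios of counts within a library showed that the members did not fall in step. Prox1 per C1ql2 stayed between 0.355 and 0.607 in all 10 libraries, and it was 0.605 in untreated replicate 3. C1ql2 per C1ql3 ran from 0.528 to 1.17 in 9 libraries and was 0.0964 in untreated replicate 3. Prox1 per Stxbp6 ran from 0.71 to 1.1 in 9 libraries and was 0.199 there. The ratio of Prox1 to C1ql2 there was above the 0.355 to 0.540 of the other untreated libraries and close to the 0.607 of RG2833 replicate 5.

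Further dentate granule genes were read from a list of 18, of which 15 matched and all 15 were tested. In untreated replicate 3, 11 of the 15 lay below all 4 other untreated libraries and 2 above; among all genes tested the shares were 36.4% below and 32.1% above. Of the 5 tested members, 4 were below and Calb1 above. Pdyn, which encodes the dynorphin precursor that granule cells store in mossy fibres, was at 16.7 CPM in that library and from 53.0 to 102 CPM in the other 9. Sema5a, a semaphorin of granule cells, was at 68.6 CPM there and from 155 to 396 CPM in the others. Neurod1, a helix-loop-helix factor of the granule lineage, was at 9.01 CPM against 11.5 to 29.8 CPM. Penk, the enkephalin precursor, and Gabrd, the GABA-A receptor delta subunit, went the other way and were highest there, at 57.4 and 43.5 CPM against at most 46.5 and 37.5 CPM elsewhere.

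Over the 10 libraries, 8 of these 15 genes had a Pearson r above 0.8 with Prox1 and 3 had an r below 0. Among the other 12160 genes tested, 8.28% were above 0.8 and 48% below 0. The median r was 0.80 for the list and 0.04 for all genes. Ordered by this r, Pdyn stood in place 3 of those 12160 genes and Sema5a in place 10, and of the members C1ql2 stood in place 6, Stxbp6 in place 326 and C1ql3 in place 1546. Fam163b of the further list stood in place 2896 and Plk5 in place 5820. Without untreated replicate 3, an alternative chosen after seeing the data, 8 of the 15 were again above 0.8 and 1 below 0, with a median of 0.82, against 4.24% above 0.8 and 46.1% below 0 of all genes. The places then were 82 for C1ql2, 90 for Stxbp6 and 115 for C1ql3. Plk5 went from an r of 0.09 to 0.87 and Gabrd from -0.36 to 0.82, so which genes followed Prox1 depended on that library. The list was written with earlier results of these data known, and these figures are a description.

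**Figure D3:**
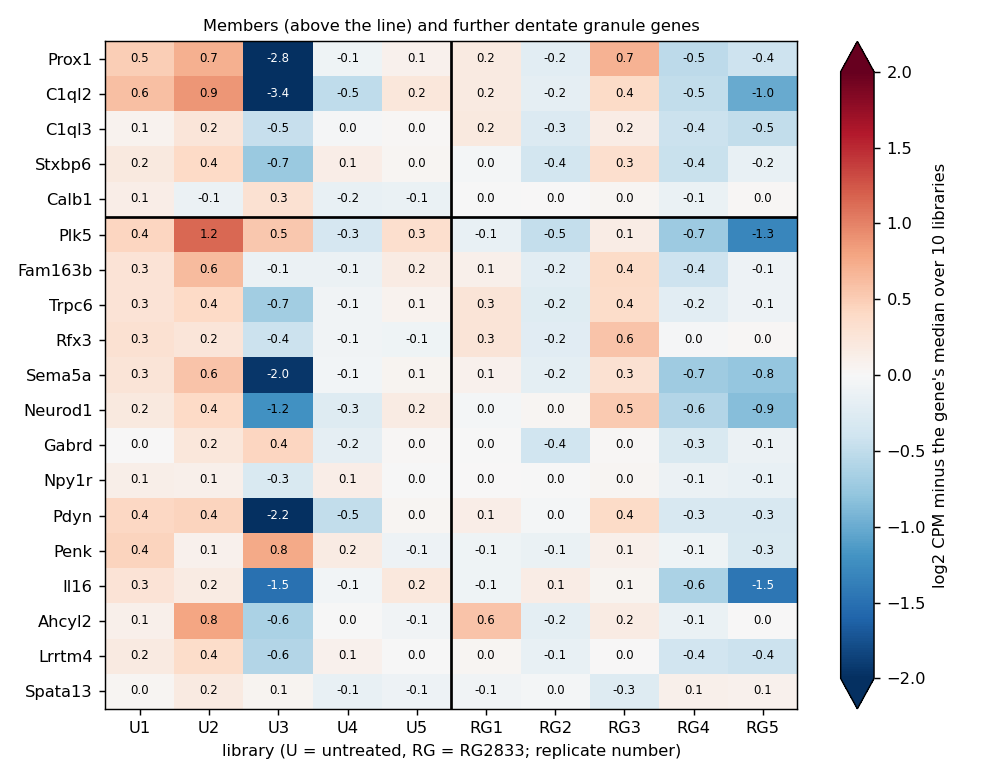
Log2 CPM of each gene minus its median over the 10 libraries, for the 5 tested members above the line and further dentate granule genes, all but 1 of the 15, below it; columns are untreated (U) and RG2833 (RG) libraries, and colours end at 2. Untreated replicate 3 is the bluest column, with Prox1, C1ql2, Pdyn and Sema5a lowest, while Calb1, Penk, Gabrd and Plk5 are not low there.

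The genes most like the members over the libraries were found by the Pearson r of log2 CPM with the mean standardised profile of the 5 tested members. Gpr135, an orphan receptor, was closest with an r of 0.99 and a rho of 0.99 over 10 libraries. Gabra4, the alpha 4 subunit of the GABA-A receptor, had an r of 0.98, and Lancl1, Chst15 and Jph1 had 0.97 each. Rragd and Trpc6, a cation channel that is also in the further granule list, had 0.97, and Dock11 had 0.96. For these 8 genes the Spearman correlation was from 0.93 to 0.99, and r without untreated replicate 3 was from 0.94 to 0.98. Among the most opposite profiles were those of Slc2a5, a fructose transporter of microglia, at -0.98, Anxa3 at -0.97 and Mctp2 at -0.96. All are the extremes of 12161 genes over 10 points and are given without a test.

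Single members had other nearest genes. Nhlh1, which encodes a neuronal helix-loop-helix factor, was closest to Prox1 (r of 0.99, rho of 0.99) and to C1ql2 (r of 0.99, rho of 0.94). Fat4, an atypical cadherin, was next for Prox1 at an r of 0.98, and Abcb1b for C1ql2 at 0.99. Pop7 and Dapk1 were closest to C1ql3 at 0.97 and 0.96, and Med1 and Ccdc85a to Stxbp6 at 0.98 and 0.97. Tubgcp2 and Edn3 were closest to Calb1 at 0.94 and 0.91, and these fell to 0.86 and 0.76 without untreated replicate 3. For the nearest genes of the other 4 members, r without that library was from 0.94 to 0.98.

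Markers of other cells moved with the members. CA3 markers followed the same libraries. The summed level of the 8 matched CA3 genes was 182 CPM in untreated replicate 3 against 607 to 706 CPM for the rest of the untreated group. It was 355 and 257 CPM in RG2833 replicates 4 and 5, against at most 662 CPM in that group. In untreated replicate 3 all 6 tested CA3 genes lay below the other 4 untreated libraries. Homer3, a postsynaptic scaffold, was at 18.6 CPM there and from 43.4 to 123 CPM in the other 9. Grik4, the kainate receptor subunit of the mossy fibre target, was at 29.5 CPM and from 59.1 to 137 CPM in the others.

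Most excitatory and pan-neuronal genes were lower in the same libraries, by less. The sum of all 8 was 8021 CPM in untreated replicate 3, with 6 of 8 genes below the other untreated libraries, whose sums ran from 9360 to 10583 CPM. In RG2833 replicates 4 and 5 the sum was 8919 and 9017 CPM, the lowest of that group. The other 2 genes, Map2 and Camk2a, were above the other untreated libraries in untreated replicate 3. Map2 was at 1657 CPM there and at 1893 and 2044 CPM in RG2833 replicates 4 and 5, the highest of that group.

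Microglial and endothelial markers, and part of the neocortical ones, went the opposite way. The summed level of the 8 matched neocortex genes was 511 CPM in untreated replicate 3 and 265 to 444 CPM in the other untreated libraries, and it ran from 289 to 490 CPM with RG2833, highest in replicate 5. Untreated replicate 4, at 444 CPM, was also above the rest of its group. In untreated replicate 3, 4 of these 8 genes lay above the other untreated libraries and 2 below. Fezf2 and Rasgrf2, a Ras exchange factor, were the 2 below. Rasgrf2 was at 34.7 CPM against 80.6 to 109 CPM, and was at 58.6 and 44.3 CPM in RG2833 replicates 4 and 5. Cux2, an upper-layer cortical factor, was at 141 CPM in untreated replicate 3, 92.4 and 106 CPM in RG2833 replicates 4 and 5 and at most 59.9 CPM in the other 7 libraries. All 8 microglia genes and 8 of 9 astrocyte genes were above the other untreated libraries in replicate 3. The summed microglia level was 841 CPM there and 434 to 487 CPM in the other untreated libraries, and the RG2833 libraries ran from 470 to 670 CPM. Endothelial genes summed to 630 CPM there, against 336 to 442 CPM in the rest of the untreated group, and to 588 and 687 CPM in RG2833 replicates 4 and 5. Oligodendrocyte genes were low in untreated replicate 3, with 7 of 8 below the other untreated libraries and a sum of 7391 CPM against 8558 to 14473 CPM, but they were not low in RG2833 replicate 5, at 16269 CPM. CA1 markers showed no such order in the untreated group, with 682 CPM in untreated replicate 3 and 489 to 1157 CPM in the other untreated libraries. In RG2833 replicates 4 and 5 their sums were 696 and 802 CPM, the lowest of that group, whose highest was 1023 CPM. No gene of these 8 lists was at 0 in all libraries, while Iyd of the CA3 list and Spink8 of the CA1 list were at 0 in at least 1. The part of these cells in the granule marker levels was not tested.

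**Figure D4:**
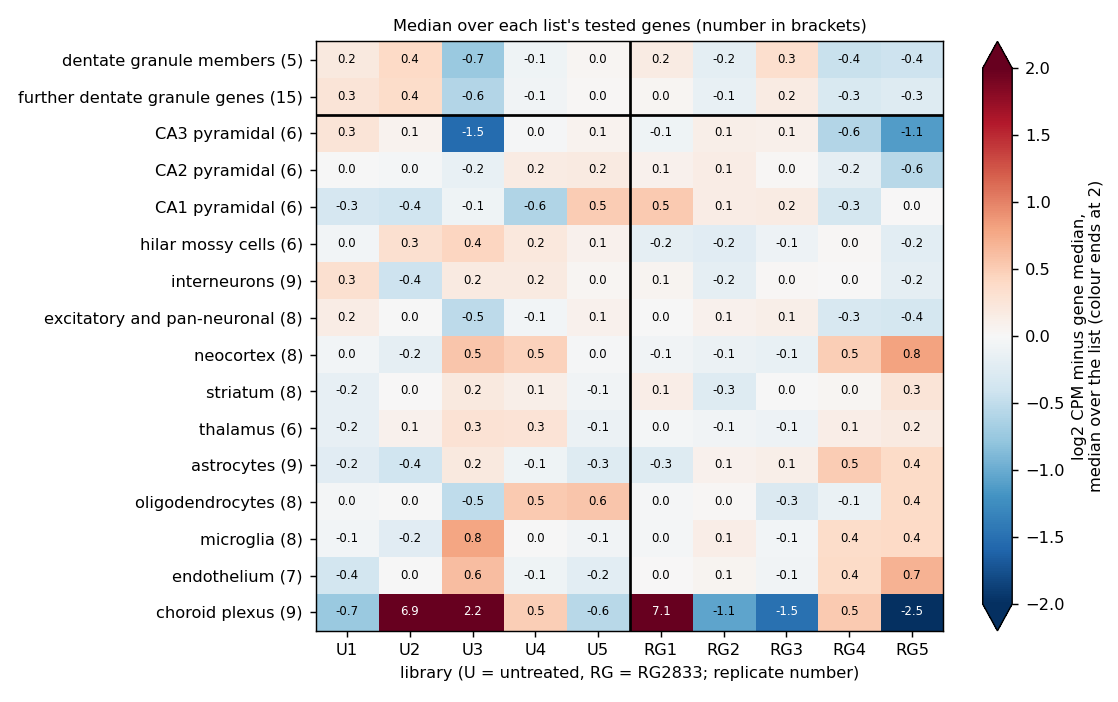
Median over each list's tested genes of log2 CPM minus the gene's median over the 10 libraries, 1 row per marker list with its number of tested genes, columns untreated (U) and RG2833 (RG) libraries; colours end at 2. The granule rows and the CA3 row are low in untreated replicate 3 and in RG2833 replicates 4 and 5, where the neocortex, microglia and endothelium rows are high.

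The study's comparison asks how RG2833 changed expression, and no change was called in the 5 granule cell markers that could be tested. Of the 5 tested members, 0 had an adjusted p under 0.05 in edgeR's quasi-likelihood test, as did 0% of all 12161 genes, and 0 had an unadjusted p below that threshold, where 5.66% of all genes did. DESeq2 also called 0 of the 5. The groups overlapped for each of the 5 members, and they did not overlap for 1% of all genes. All 5 had a fitted log2 fold change below 0, as did 53.5% of all genes. The median was -0.13 for the members and -0.01 over all genes. With 1 library left out, from 3 to 5 members were below 0, and the median ran from -0.30 without untreated replicate 3 to -0.05 without RG2833 replicate 5. Beside this, all 9 tested astrocyte genes were higher with RG2833, with a median log2 fold change of 0.33 and 0 past the adjusted threshold; their summed level was 5397 to 7860 CPM in untreated and 6086 to 8704 CPM in RG2833 libraries, highest in replicates 4 and 5 at 8704 and 8693 CPM, and its part in the members' values was not tested. Of 6 tested genes each, the CA3 and hilar mossy cell lists had 6 lower, with medians of -0.09 and -0.26. The CA2 list had 5 lower (median -0.13) and the CA1 list 1 lower (median 0.25). Without RG2833 replicate 5 the CA3 median turned to 0.03. The part of these lists in the members' values was not tested.

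The standard errors were wide for the 2 most variable members. Prox1 was at 32.0 ± 17.7 CPM without and 31.3 ± 11.7 CPM with RG2833 (SD, n = 5 each), and its fitted log2 fold change was -0.04 (SE 0.48; edgeR adjusted p = 0.996). C1ql2 was at 81.8 ± 53.0 and 69.3 ± 24.6 CPM, a log2 fold change of -0.24 (SE 0.57; edgeR adjusted p = 0.977). For both genes the mean of log2 CPM was higher with RG2833, by 0.27 and 0.22, so the sign depended on whether levels or logarithms were averaged (exact permutation p = 0.881 and 0.897, two-sided). Their biological coefficients of variation were 53.2% and 61.4%, above those of 97.5% and 98.3% of the genes tested.

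The other 3 were estimated more closely. C1ql3 was at 101 ± 17.2 CPM without and 92.4 ± 21.1 CPM with RG2833, a log2 fold change of -0.13 (SE 0.17; edgeR adjusted p = 0.946; exact permutation p = 0.484). Stxbp6 was at 37.5 ± 9.69 and 33.7 ± 7.53 CPM, a log2 fold change of -0.16 (SE 0.20; edgeR adjusted p = 0.946; exact permutation p = 0.595). Calb1 was at 74.1 ± 11.0 and 72.5 ± 3.4 CPM, a log2 fold change of -0.03 (SE 0.09; edgeR adjusted p = 0.982; exact permutation p = 0.913).

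Leaving out untreated replicate 3 moved each of the 5 fitted log2 fold changes by more than 1.5 times or turned its sign. Without it the untreated mean was 39.0 ± 9.79 CPM for Prox1 and 101 ± 37.7 CPM for C1ql2 (SD, n = 4). The log2 fold change became -0.31 (SE 0.26) for Prox1, -0.53 (SE 0.32) for C1ql2, -0.22 (SE 0.15) for C1ql3 and -0.30 (SE 0.15) for Stxbp6, and it turned to 0.051 (SE 0.07) for Calb1. None passed: the edgeR adjusted p ran from 0.391 for Stxbp6 to 0.751 for Calb1. The CA3, neocortex and microglia levels given above move with the library left out. RG2833 replicates 4 and 5, the lowest of their group in Prox1, C1ql2 and C1ql3, are also the 2 libraries of that group with the lowest CA3 and highest neocortex sums.

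**Figure D5:**
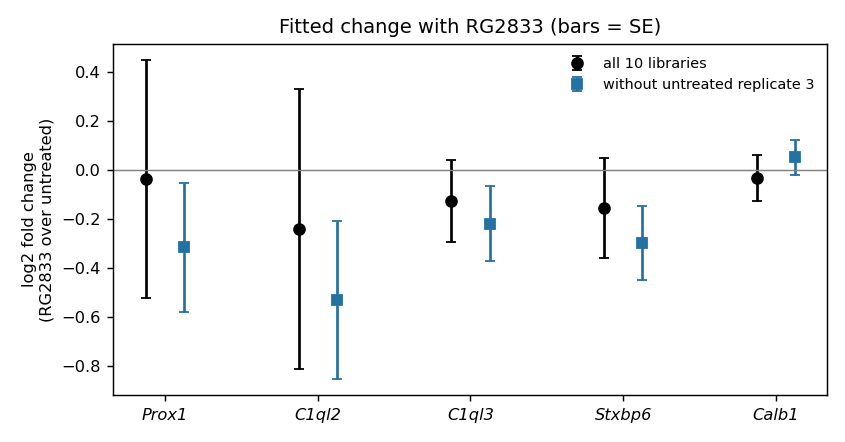
Fitted log2 fold change of RG2833 over untreated for the 5 tested members, with all 10 libraries (black circles) and without untreated replicate 3 (blue squares); bars are SE. The black bars of Prox1 and C1ql2 are the widest, and without that library the first 4 genes lie further below 0 while Calb1 lies at 0.051.

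Among the 15 further granule genes, 12 were lower and 3 higher with RG2833, 0 passed the adjusted threshold in edgeR, and 2 had an unadjusted p under 0.05. Over all genes tested, 53.5% were lower and 5.66% had such a p. The median log2 fold change of this list was -0.06. It was -0.17 without untreated replicate 3, with 13 of the 15 lower, -0.26 without RG2833 replicate 3, and 0.006 without untreated replicate 2, with 7 of the 15 lower. Of all genes tested, 54.3% were lower without untreated replicate 3 and 49.3% without untreated replicate 2. Plk5, a member of the polo-like kinase family, was at 18.3, 30.2, 19.7, 10.8 and 17.2 CPM in untreated replicates 1 to 5 and at 12.3, 9.82, 15.1, 8.20 and 5.53 CPM in RG2833 replicates 1 to 5. All 5 RG2833 values were under 4 of the 5 untreated values, and untreated replicate 4 made the groups overlap (log2 fold change -0.92, SE 0.30; edgeR adjusted p = 0.841). Penk was at 41.9 ± 10.2 CPM without and 31.8 ± 3.11 CPM with RG2833 (log2 fold change -0.40, SE 0.15; edgeR adjusted p = 0.841), and its value was -0.26 without untreated replicate 3, where it was highest. The fitted value of Gabrd was -0.27 (SE 0.12), with an unadjusted p of 0.0555 in edgeR's test, and was -0.17 without untreated replicate 3.

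The families around the members gave 0 calls at the adjusted threshold in edgeR. Of 12 tested C1q-like and cerebellin synapse organisers and their partners, 4 were higher and 8 lower, with a median of -0.04 and 0 at an unadjusted p under 0.05. Over all genes tested, 53.5% were lower and 5.66% had such a p in edgeR. Without untreated replicate 3 the list became 7 higher and 5 lower, with a median of 0.03 and 2 at such a p. Of all 12196 genes tested in that setting, 54.3% were lower and 1732 had such a p. Nrxn3, a neurexin and so of the family of presynaptic partners of these organisers, was at -0.17 (SE 0.13), and at -0.08 without RG2833 replicate 5. Of 12 genes of the Stxbp family and exocytic SNAREs, 6 were higher and 6 lower. Of 8 tested desmosome and adherens plaque genes, 4 were higher and 4 lower. In that list Pkp1, a plakophilin, was at 5.00 ± 0.52 CPM without and 6.20 ± 0.83 CPM with RG2833 (log2 fold change 0.31, SE 0.13; edgeR adjusted p = 0.841), at an unadjusted p under 0.05, and Ppl, periplakin, was at -1.03 (SE 0.59) and at -0.53 without untreated replicate 2. Of 12 tryptophan degradation genes 9 matched and 3 were tested, with 2 higher and 1 lower. Afmid was at 0.30 (SE 0.20), and at 0.48 without untreated replicate 3. Aadat was at 0.18 (SE 0.15), and at 0.11 without untreated replicate 2 and 0.08 without RG2833 replicate 5. Qprt, which makes a nicotinate nucleotide from quinolinic acid, was at -0.29 (SE 0.31), and turned to 0.068 without untreated replicate 3.

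Of the 7 tested calcium buffers and sensors, 3 were higher and 4 lower with RG2833; Calb2 and Pvalb had an unadjusted p under 0.05 and 0 genes passed the adjusted threshold in edgeR. Calb2, calretinin, a marker of newborn granule neurons and of mossy cells in some species, was at 12, 17.6, 19.5, 44.9 and 11.7 CPM in untreated replicates 1 to 5. In RG2833 replicates 1 to 5 it was at 9.75, 8.40, 10.0, 13.8 and 9.61 CPM. The fitted log2 fold change was -1.03 (SE 0.35; edgeR adjusted p = 0.841) and was -0.56 without untreated replicate 4, whose value was the highest. Pvalb, parvalbumin of fast-spiking interneurons, was at 34.7 ± 5.89 CPM without and 44.8 ± 3.39 CPM with RG2833 (log2 fold change 0.37, SE 0.11; edgeR adjusted p = 0.841). Of the 5 tested newborn neuron genes, 4 were lower and 1 higher with RG2833, and Calb2 alone had an unadjusted p under 0.05. Over all genes tested, 53.5% were lower and 5.66% were under that unadjusted threshold.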

How the data were processed

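Per the labels' protocols, RNA of 1 hippocampus per rat was purified on columns and sequenced from stranded mRNA libraries. The authors deposited RSEM expected counts per gene, 11.6% of which were not whole, and TMM-normalized CPM, a signal scaled by the authors. Per the submitters' processing notes, the tools were bcl2fastq 2.17, Bowtie2 2.1.0, RSEM 1.2.15 and edgeR, with build rn6; the annotation and the strand setting are not given in the sources used here. In the deposited normalized signal, 100% of the values above 0 and under 5000 reads came out as whole reads (tolerance 0.02 reads), and the count test on those reads called 0 genes.

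Expected counts were rounded and fitted with edgeR 4.0.16 (R 4.3.3): filterByExpr (minimum count 10, minimum total 15), TMM and the robust quasi-likelihood test of RG2833 against untreated, with Benjamini-Hochberg adjustment over all 12161 genes. Log2 CPM used a prior count of 2. Exact permutation tests covered all 252 regroupings of 5 and 5 libraries (smallest p 0.00794), and correlations used 100000 permutations. In simulated counts with 200 of 12116 genes changed 2-fold, 82.5% were recovered, with 10 other calls. Genes were drawn independently there, so no simulated library departed in many genes at once as untreated replicate 3 did. The recovered share is over randomly chosen genes, and recovery at the spread of Prox1 or C1ql2 was not tested. P-values of the group comparison measure the spread between 5 rats a group. Those of the correlations come from shuffling all 10 libraries without regard to group.

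The members and gene lists were chosen with earlier results of these data known. The text names all members, genes of the related lists at an unadjusted p under 0.05 or with the smallest p, and the genes most and least like the members; a few genes this rule selects are not reported here. Pdyn, Sema5a, Neurod1, Fam163b, Homer3, Grik4, Map2, Camk2a, Cux2, Fezf2, Rasgrf2, Ttr and Qprt were named after their values were seen. Of the other lists the genes at an unadjusted p under 0.05 were Mpped1, Glp1r, Sst, Npy, Gja1, Gjb6, Slco1c1, Six3 and Rorb. Alternatives were other scalings and filters, DESeq2 1.42.0, limma-voom (limma 3.58.1), a replicate block and left-out libraries. Promoters came from RefSeq (GRCr8).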

Additional observations from a re-analysis of the deposited data

Results flagged for a closer look

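In 4 of 40 sets of 5 values (20 granule genes in 2 groups), the gap between an end library and its neighbour exceeded 0.71 of the group's range on log2 CPM; chance flags about 1 in 20 sets, or 2. Prox1 in untreated replicate 3 was lowest by 0.774 of the range (4.3 CPM, next 29.0 CPM). Sema5a and Il16 were lowest in the same library, by 0.748 (68.6 CPM, next 255 CPM) and 0.814 (16.2 CPM, next 43.7 CPM). Calb1 in RG2833 replicate 4 was lowest by 0.735 of a narrow range (66.6 CPM, next 72.8 CPM).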

How the results depend on the processing

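No member passed the adjusted threshold under any of the 19 alternatives. With DESeq2, 7 of all genes passed, against 0 in edgeR; the cause was not tested. The number of genes at an unadjusted p under 0.05 was 688 and ran from 375 to 1732 with 1 library left out (375 without RG2833 replicate 4, 424 without RG2833 replicate 5, 1732 without untreated replicate 3), 1263 with limma-voom sample weights and 401 with the replicate block. The log2 fold change of Prox1 (-0.04) turned to 0.065 with the replicate block, 0.14 without the 2 libraries rich in choroid plexus RNA, and ran from -0.31 to 0.19 with 1 library left out, above 0 without untreated replicate 1 or 2 or RG2833 replicate 2, 4 or 5. That of C1ql2 ran from -0.53 to 0.054 (without untreated replicate 2), that of C1ql3 from -0.23 to -0.05, that of Stxbp6 from -0.30 to -0.06 and that of Calb1 from -0.073 to 0.051 (without untreated replicate 3), and Calb1 turned to 0.050 with limma-voom. The members' adjusted p was 0.391 or higher throughout. Qprt ran from -0.42 to 0.068 (without untreated replicate 3) with 1 library left out. Plk5 ran from -1.10 to -0.69. The labels do not say whether equal replicate numbers pair the rats. Same-numbered libraries had correlations of deviations from -0.49 to -0.03, so they shared no visible deviation, which cannot decide how the rats were kept or processed. The replicate block changed no call at the adjusted threshold. With the replicate block the unadjusted edgeR p of Pkp1 went from 0.0315 to 0.0705 and that of Gabrd from 0.0555 to 0.0425. The low depth of Lct and Tdo2 limits any statement on them.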

Other observations

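Beside C1ql2 and Prox1, the genes lowest in untreated replicate 3 relative to the other untreated libraries, among 8760 genes averaging at least 10 CPM in those 4, were looked up after the values were seen. Nhlh1, the neuronal helix-loop-helix factor nearest to Prox1, came first at 0.478 CPM against 7.22 to 17.3 CPM, with a log2 difference of -4.32. Chst9, a sulfotransferase, was at 0.537 CPM against 7.90 to 12.8 CPM, and C1ql2 itself was in place 3. Lrrc10b was at 7.1 CPM against 66.1 to 119 CPM, and Klk8, neuropsin, a hippocampal protease, at 0.776 CPM against 7.71 to 16.0 CPM. Adra1d, an adrenergic receptor, was at 13.5 CPM against 99.7 to 135 CPM, and Prox1 was in place 7. Hpca, hippocalcin, the abundant calcium sensor of hippocampal neurons, was at 322 CPM against 1607 to 2521 CPM, and at 660 CPM in RG2833 replicate 5.

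Pkp2, a plakophilin and partner of the unmatched Dsp, followed the granule and CA3 markers. It stood at 7.82 CPM in untreated replicate 3, at 16.4 and 14.6 CPM in RG2833 replicates 4 and 5, and from 28.1 to 45.7 CPM in the other 7 libraries.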
